A study of Mus musculus with 18 samples.

Results

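The genes described here are 10 genes of the LIF, JAK and STAT3 pathway, chosen by name from what is known of the pathway and found on the array through the RefSeq accession of each probe. All 10 of 10 had a probe, and they were 10 of the 19259 genes named there, with 15 of its 37246 probes. The cells were early passage mouse embryonic stem (ES) cells, grown on gelatin without feeder cells in medium with leukemia inhibitory factor (LIF), and isogenic differentiated (ED) cells, obtained from the ES cells by about 1 week of culture in normal medium without LIF. ES and ED cells were unirradiated, ESRE and EDRE cells were collected 15 min after 10 Gy ionizing radiation (IR), and ESRL and EDRL cells were collected 4 h after it, with 3 arrays in each of the 6 groups. Strain, age and clone of the ES cells are not given in the labels. The study's methods state that beta-mercaptoethanol was withdrawn together with LIF. Because both were withdrawn from the ED cells only, the absence of either from the medium and the differentiated state cannot be told apart in these data, and in bulk RNA fewer cells of a type and less RNA per cell cannot be told apart either. The labels do not say that the 3 arrays of a group came from separate cultures. The p-values thus measure the spread between arrays of a group, pooled over all 6 groups, which may be technical.

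LIF is the cytokine that keeps mouse ES cells undifferentiated in culture. It binds the LIF receptor (Lifr), which pairs with the shared signaling chain gp130 (Il6st), and kinases of the JAK family on the receptor chains then phosphorylate STAT3, a transcription factor that enters the nucleus and activates its targets. Interleukin 6 (Il6) uses its own receptor chain, Il6ra, together with the same gp130, and Socs3, itself a STAT3 target, binds gp130 and the JAK kinases and dampens the signal.

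Values are background-subtracted Cy3 signals in log2 units, from which the 75th percentile of each array was subtracted (a value of 0 is as bright as that percentile), and they are compared within a probe only. A gene was called higher or lower in a comparison where its brightest probe passed an adjusted p of 0.05 by limma and differed by more than 1 log2 unit, which is a 2-fold change. The 75th percentile lay between 1952 and 4268 signal units on 16 arrays and at 875 and 1155 on replicates 2 and 3 of EDRE, on which 24.4% and 23.8% of spots carried outlier marks. Spots with outlier marks were left out. On those arrays this removed the brightest probes of Lif, Il6, Jak2, Stat3 and Pim1 from both, so that their EDRE values rest on 1 array. Another Stat3 probe kept all 3 EDRE arrays, at 0.29, -1.36 and 0.42. As a check of the labels, all 8 stem cell markers listed were well above background on every ES array, and the log2 of their summed signal lay between 8.99 and 9.02 in ES and between 2.33 and 2.54 in ED. In ED the stem cell marker Zfp42 was not well above background on any array, whereas 6 of the 8 markers still were on all 3 ED arrays.

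**Figure D1:**
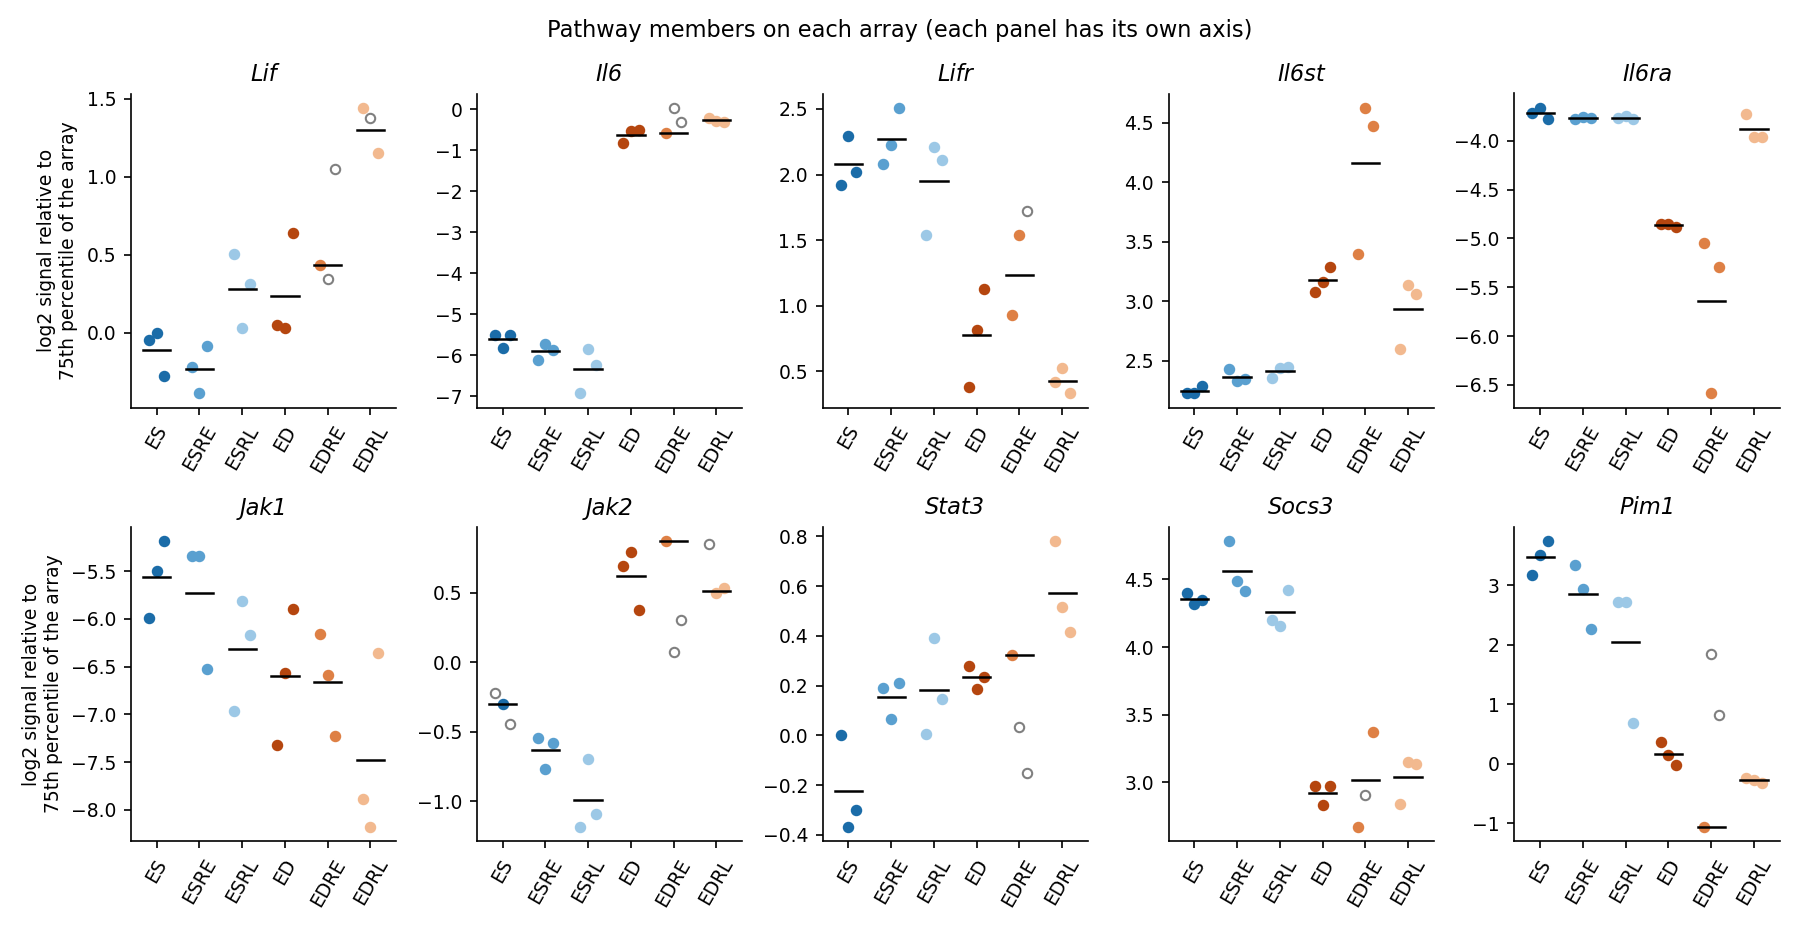
Signal of the brightest probe of each of the 10 genes on each of the 18 arrays, in log2 units with the 75th percentile of its array at 0, by group. Filled points are arrays used, open points are spots with outlier marks that were left out, and black lines are group means of the points used. Il6 lay between -0.83 and -0.51 in ED and between -5.83 and -5.51 in ES, whereas Pim1, Socs3, Lifr and Il6ra were lower in ED than in ES.

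The first comparison asked how the pathway differed between unirradiated ED and ES cells. Of the 10 members, 1 was called higher in ED (Il6) and 4 lower (Lifr, Il6ra, Socs3 and Pim1), while Lif, Il6st, Jak1, Jak2 and Stat3 were not called. Among all 28636 probes tested, 41.7% were called in this comparison, 15.1% higher and 26.6% lower, so that 5 of 10 lay close to what the whole array showed. By the adjusted p alone 8 of 10 members passed, against 51.9% of all probes, and the arrays of ES and ED did not overlap for 8 of the 9 members measured on all 6 arrays, against 71.2% of 25227 probes. The members' median change was -0.34, against -0.19 over all probes tested. Scaling by array medians moved the median of all probes by 0.64, to 0.46, raised the share of rises among all calls from 36.2% to 59.1%, and gave 4 members higher (Il6, Il6st, Jak2 and Stat3) and 1 lower (Pim1). With scan time as a random block 2 members were called, Il6 higher and Socs3 lower, against 21.2% of all probes. No scan time held arrays of a group and of the group it was compared with, here or after IR.

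Il6, a ligand of the pathway, had the largest change of the members. Its values were -5.51, -5.83 and -5.51 on the ES arrays and -0.83, -0.52 and -0.51 on the ED arrays. The groups lay far apart, and the ES spots, dim as they were, were well above background on all 3 arrays. Il6 was 31.9-fold higher in ED (log2 change 5.0, SE 0.24, adjusted p = 1.38e-09 by limma), and the change was 5.18 relative to the median of all probes. It was called under every alternative run, with changes between 4.11 and 5.64. The promoter of Il6 is shown because Il6 had this change. RefSeq places the 250 bases before its start at chr5:30012864-30013113 on the plus strand of GRCm38.p6. The capitals mark a match to TTGNGCAA, a form of the motif bound by C/EBP factors.
Il6 promoter: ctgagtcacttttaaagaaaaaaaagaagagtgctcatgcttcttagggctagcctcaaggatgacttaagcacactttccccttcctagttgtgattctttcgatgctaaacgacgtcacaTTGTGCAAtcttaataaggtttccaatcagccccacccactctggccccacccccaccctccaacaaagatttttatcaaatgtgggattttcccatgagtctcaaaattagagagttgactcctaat
Searched on both strands of the 300-base windows around 32851 gene starts, TTGNGCAA was held by 2.94% of windows. Among the 12 windows of the 10 members, that of Il6 held the only match, and the motif was chosen for search after the Il6 values had been seen. A match describes the letters and is not evidence of binding. Cebpb, which encodes a C/EBP factor and was named outside the rule for named genes, was higher in ED (3.21 in ES and 5.26 in ED, log2 change 2.04, SE 0.15, adjusted p = 1.05e-07). A link between Cebpb and Il6 was not tested.

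Lif, whose protein the ES medium supplied, showed no called difference between the cell types. Its brightest probe (transcript NM_001039537) read -0.05, 0.00 and -0.28 in ES and 0.05, 0.03 and 0.64 in ED. The groups did not overlap, although 2 of the ED arrays lay close to the ES arrays. The change was 0.35 (SE 0.21, adjusted p = 0.192). The other Lif probe (NM_008501) gave 0.48 (SE 0.14, adjusted p = 0.0148), in the same direction and under the 2-fold limit.

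The receptor chains moved in different directions. Lifr read 1.92, 2.30 and 2.02 in ES and 0.38, 0.82 and 1.13 in ED, so that each ED array lay below each ES array. It was 2.47-fold lower in ED (log2 change -1.30, SE 0.24, adjusted p = 3.98e-04). The probe of a second Lifr transcript (NM_001113386) fell by 0.83 (SE 0.21, adjusted p = 0.00431), which is under the 2-fold limit. Il6ra, the chain specific to interleukin 6, read -3.72, -3.66 and -3.78 in ES and -4.85, -4.85 and -4.89 in ED. The spread within either group was small. Il6ra was 2.21-fold lower in ED (log2 change -1.14, SE 0.28, adjusted p = 0.00281). This SE rests on the spread of all groups, among them EDRE, where Il6ra read -5.05, -6.59 and -5.29. Il6st, the chain both ligands share, went the other way: it read 2.23, 2.23 and 2.29 in ES and 3.08, 3.16 and 3.29 in ED. The groups did not overlap, and the change of 0.93 (SE 0.25, adjusted p = 0.00568) passed the test but not the 2-fold limit. With arrays scaled to their median the changes were -0.66 for Lifr, -0.50 for Il6ra and 1.57 for Il6st, so that the first 2 lost the call and Il6st gained it. Il6ra also lost the call with normexp background correction (-0.82, adjusted p = 0.0631 by limma) and with quantile normalization (-0.46, adjusted p = 0.502). The authors' table of log2 values gave -0.49 for Il6ra (adjusted p = 0.208), which was not called either.

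Of the kinases, Jak2 carries the signal of several gp130 cytokines. Its brightest probe kept 1 ES array, at -0.30, and read 0.69, 0.79 and 0.38 in ED. The 2 ES spots left out lay at -0.22 and -0.45, also below each ED value. The change was 0.93 (SE 0.27, adjusted p = 0.0151), under the 2-fold limit, whereas the other Jak2 probe (NM_001048177) was called higher, from -0.40 and -0.36 on 2 ES arrays to 0.60, 0.85 and 0.82 in ED (log2 change 1.13, SE 0.17, adjusted p = 5.10e-04). Jak1, the principal kinase on gp130, had a probe close to background, with values from -5.99 to -5.19 in ES and from -7.32 to -5.89 in ED. The ranges overlapped, and the change of -1.03 (SE 0.52, adjusted p = 0.11) did not pass the test.

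Stat3, the transcription factor at the end of the cascade, showed a small difference. It read 0.00, -0.37 and -0.30 in ES and 0.28, 0.19 and 0.24 in ED. Every ED array was above every ES array, by 0.46 in the mean (SE 0.16, adjusted p = 0.0307), which is 1.37-fold and was not called. The other Stat3 probes gave 0.41 (adjusted p = 0.037) and 0.27 (adjusted p = 0.561). Relative to the median of all probes the change of the brightest probe was 0.64, and with arrays scaled to their median it was 1.10 and was called. RNA levels do not show the phosphorylation of STAT3, on which its activity depends.

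Socs3 and Pim1, both known STAT3 targets, were lower in ED. Socs3, the feedback inhibitor, read 4.40, 4.32 and 4.35 in ES and 2.97, 2.83 and 2.97 in ED. The arrays of each group lay close together and the groups were well apart. Socs3 was 2.69-fold lower (log2 change -1.43, SE 0.18, adjusted p = 1.44e-05). With arrays scaled to their median the change was -0.79 (adjusted p = 0.00333), under the 2-fold limit. The Socs3 promoter is shown because it was the only one of the 12 member windows with TTCNNNGAA, the palindrome bound by STAT factors, here in capitals. The 250 bases before the start lie at chr11:117969367-117969616 on the minus strand of GRCm38.p6, and the match ends 145 bases before the start.
Socs3 promoter: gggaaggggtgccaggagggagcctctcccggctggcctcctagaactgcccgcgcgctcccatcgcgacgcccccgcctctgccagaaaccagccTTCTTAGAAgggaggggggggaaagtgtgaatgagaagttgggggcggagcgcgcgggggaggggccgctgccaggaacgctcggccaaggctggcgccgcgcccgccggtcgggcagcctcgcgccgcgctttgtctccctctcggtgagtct
TTCNNNGAA was held by 8.3% of all 32851 windows, on both strands, and the same palindrome with 4 free bases between its arms by 6.95% of them and by 0 of the 12 member windows. No match says only that these letters are not in this window.

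Pim1, a kinase that promotes survival and growth, read 3.18, 3.50 and 3.73 in ES and 0.37, 0.15 and -0.01 in ED. The groups were separated by several times the spread within either of them. Pim1 was 9.86-fold lower in ED (log2 change -3.30, SE 0.46, adjusted p = 4.29e-05). It was called under each scaling, and with scan time as a random block the change was -2.63 (adjusted p = 0.189).

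**Figure D2:**
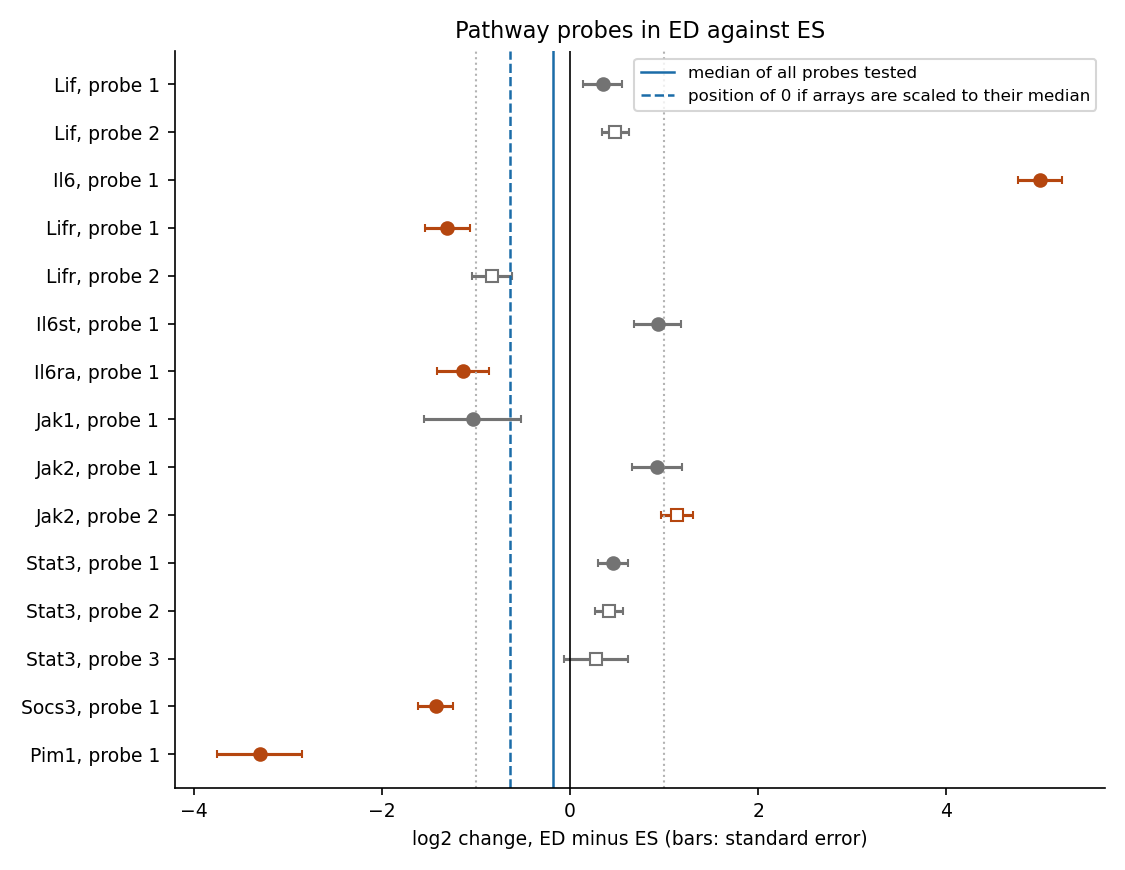
Log2 change of each of the 15 probes in ED against ES, with its standard error (3 arrays per group before spots with outlier marks were left out). Round points are the brightest probe of a gene, open squares are its other probes, orange marks probes called, dotted lines stand at -1 and 1, the solid blue line is the median of all probes tested and the dashed blue line is where 0 would lie with arrays scaled to their median. Il6 at 5.0 and Pim1 at -3.30 lay far outside the dotted lines, whereas Lifr, Il6ra and Socs3, from -1.43 to -1.14, lay just beyond the lower one, within 1 unit of the dashed line.

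The 48 other genes of the pathway on the list, all of them on the array, included further ligands, receptors, STAT factors, inhibitors and targets. In ED against ES, 44 were tested, of which 10 were called higher and 16 lower. Of all probes tested 41.7% were called, 15.1% higher and 26.6% lower, and these shares also stand beside the counts by role below. The median change of the 44 genes was 0.15, against -0.19 over all probes. With arrays scaled to their median 17 were higher and 12 lower, where 45.3% of all probes were called. With scan time as a random block 6 were higher and 11 lower, where 21.2% of all probes were called. The 4 genes not tested, Jak3, Tyk2, Klf5 and Myc, lacked usable spots. With outlier spots kept the kinases Jak3 (-1.22, adjusted p = 0.0539) and Tyk2 (-0.59, adjusted p = 0.242) were not called, whereas Myc, a growth regulator, was higher in ED by 2.39 (SE 0.29, adjusted p = 4.15e-06) and Klf5, a stem cell factor, lower by a change of -2.65 (SE 0.25, adjusted p = 2.57e-07).

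Osmr, the chain that pairs with gp130 to bind oncostatin M, was the receptor with the largest rise. It read -2.37, -2.39 and -2.05 in ES and 3.52, 3.59 and 3.84 in ED. The groups lay far apart, and Osmr was 60.5-fold higher in ED (log2 change 5.92, SE 0.23, adjusted p = 6.12e-11), a call kept under every alternative run. Thus Lifr and Osmr, the chains that can each pair with gp130, differed in opposite directions. Of the 4 other receptor genes, Osmr was called higher and 2 lower. Cntfr, the receptor of ciliary neurotrophic factor, was one of these, from -3.47 in ES to -7.18 in ED (log2 change -3.71, SE 0.41, adjusted p = 1.93e-06), with 1 of 3 ED arrays well above background. The size of this change rests on signals near background, and with normexp background correction it was -1.98.

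Of the 9 other ligand genes, 3 were called higher and 3 lower. Ctf1, which encodes cardiotrophin 1, rose most, from -3.07, -2.86 and -3.0 in ES to -0.16 and 0.01 on the 2 usable ED arrays (log2 change 2.90, SE 0.18, adjusted p = 4.23e-08). Ctf1 is on a list the study drew from these samples, so that its change is not independent evidence. Ebi3, a subunit of interleukin 27, was well above background on all 3 ES arrays and on no ED array, and was at least 24.1-fold lower in ED (adjusted p = 3.19e-07). This bound sets the ES mean against the dimmest signal well above background on each ED array.

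Of the 6 other STAT genes, 2 were called higher and 1 lower. Stat5b was higher in ED, from -1.04 on the 1 usable ES array to a mean of 0.57 (log2 change 1.62, SE 0.21, adjusted p = 7.58e-05). The ES spots left out lay at -1.04 and -0.91, and with 1 array the spread of ES is assumed to be that of the other groups. Stat4, a STAT factor best known from lymphocytes, was well above background on all ES arrays and on no ED array, and was at least 220.6-fold lower in ED (adjusted p = 7.22e-08).

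Of the 15 other inhibitors, 2 were called higher and 4 lower. Socs5, a relative of Socs3, rose by 3.83 (SE 0.15, adjusted p = 2.33e-10), from -0.93 in ES to 2.90 in ED. Ptpn6, a phosphatase that counteracts JAK kinases, was 24.8-fold lower, from -0.10 to -4.73 (log2 change -4.63, SE 0.22, adjusted p = 1.63e-10). Thus Socs5 and Socs3, inhibitors of one family, differed in opposite directions.

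Of the 12 other target genes, 10 were tested, of which 2 were called higher and 6 lower. Nr0b1, Gbx2 and Tfcp2l1, of those that fell, belong to the network that holds mouse ES cells undifferentiated. Nr0b1 went from 4.15 to -5.99 (log2 change -10.15, SE 0.41, adjusted p = 9.72e-11). Gbx2 went from 2.52 to -7.12 (-9.64, SE 0.44, adjusted p = 1.1e-10), and Tfcp2l1 from 1.31 to -7.08 (-8.39, SE 0.62, adjusted p = 4.59e-08). Gbx2 and Tfcp2l1 were well above background on 1 of 3 ED arrays each, so that the size of their change rests on signals near background (-7.69 and -6.38 with normexp background correction), and the ES values of Nr0b1 and Tfcp2l1 rest on 2 arrays. Klf4, another factor of that network, read 3.81, 3.80 and 3.92 in ES and 3.64, 3.92 and 4.11 in ED. Its ranges overlapped, with a change of 0.05 (SE 0.23, adjusted p = 0.898). Pim3, a relative of Pim1, was lower by a smaller amount, from 4.68 to 3.44 (log2 change -1.24, SE 0.17, adjusted p = 4.03e-05), and lost the call with arrays scaled to their median, at -0.60. Cebpd, a C/EBP factor, rose by 2.96 (SE 0.86, adjusted p = 0.00927) from values that were well above background on 1 of 3 ES arrays. With normexp background correction its change was 1.15 (adjusted p = 0.0546) and with scan time as a random block 2.25 (adjusted p = 0.546), neither of which was called.

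**Figure D3:**
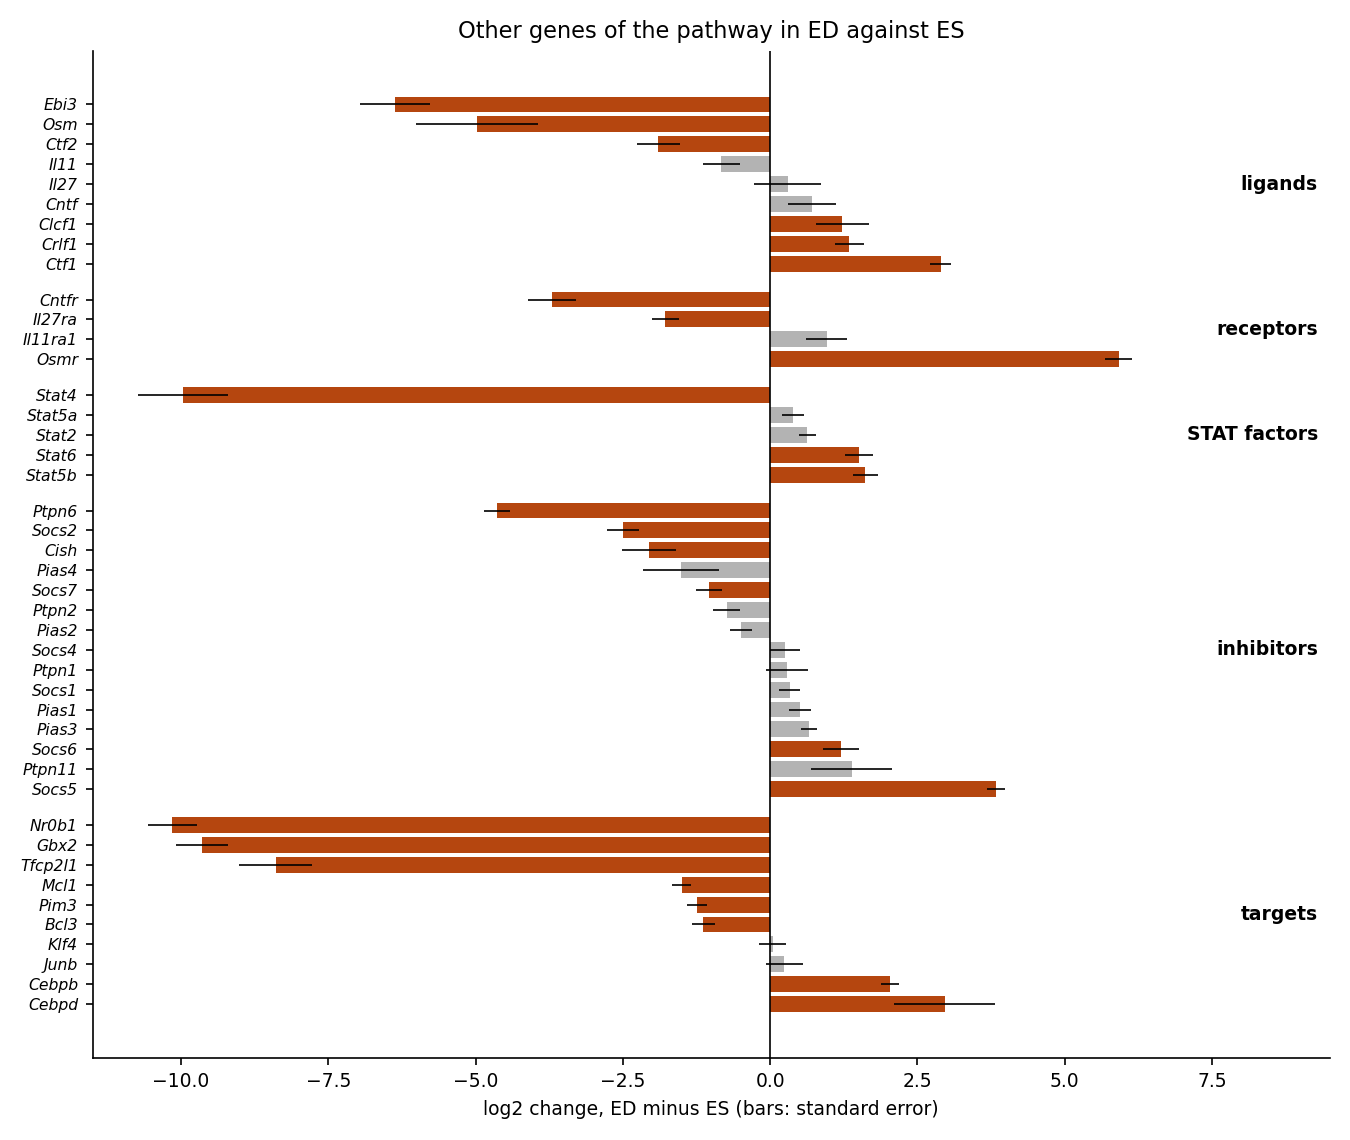
Log2 change in ED against ES of 43 of the 44 other pathway genes tested, grouped by role, with standard errors. Orange bars were called and gray bars were not, and the bars of Ebi3 and Stat4 are fitted differences from ED signals at background. Osmr at 5.92 and Socs5 at 3.83 had the largest rises, and the lengths of the bars of Gbx2, Tfcp2l1, Cntfr, Ebi3 and Stat4 rest on ED signals at or near background, so that falls are not ranked.

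Markers of other cell types differed between ES and ED together with these genes. Of 10 fibroblast markers, all well above background in ES, the log2 of the summed signal lay between 5.03 and 5.12 in ES and between 8.74 and 9.08 in ED, and Thy1 was not well above background in ED. Of the 5 macrophage markers on the array the summed signal lay between 0.16 and 0.30 in ES and between 0.39 and 0.49 in ED, and Ptprc was not well above background on any array of either group. Members of that list moved both ways, since Cd14 was higher in ED by 4.52 (adjusted p = 7.23e-12) while Adgre1 was well above background on no ED array and at least 3.12-fold lower (adjusted p = 0.0017). The 4 endothelial markers summed to between 2.33 and 2.65 in ES and between -3.65 and -3.52 in ED. All 4 were well above background on every ES array, and the cells that carried this RNA were not identified. The 5 neural markers summed to between 2.24 and 2.42 in ES and between 2.64 and 3.09 in ED. The 7 primitive endoderm markers summed to between 1.89 and 1.99 in ES and between 1.97 and 2.34 in ED, and Foxa2 was not well above background in ED. The part of these markers in the differences of Il6, Osmr and the other genes was not tested.

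The next comparisons asked whether IR changed the pathway in ES cells. At 15 min, 0 of 10 members were called by limma, against 0.463% of all 27875 probes tested. An unadjusted p under 0.05 was found for 1 member, Stat3, against 2633 of the 27875 probes. The methods' t-test called 0 members as well. The largest change of a member was that of Pim1, which read 3.33, 2.94 and 2.27 on the ESRE arrays (log2 change -0.62, SE 0.46, adjusted p = 0.802). The brightest Stat3 probe read 0.19, 0.06 and 0.21 in ESRE, above all ES arrays, with a change of 0.38 (SE 0.16, adjusted p = 0.47). On the other Stat3 probes ESRE overlapped ES. Their lowest ESRE arrays read 0.005 and -0.36, against highest ES arrays of 0.05 and -0.26. The other members differed by between -0.33 and 0.20 from ES. The arrays of ES and ESRE did not overlap for 3 of the 9 members measured on all arrays (Il6st, Stat3 and Socs3), against 35% of 24395 probes.

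At 4 h, 0 of 10 members were called in ESRL cells, against 7.03% of all 27966 probes. An unadjusted p under 0.05 by limma was found for 4 members (Il6, Jak2, Stat3 and Pim1), against 6985 of the 27966 probes. The methods' t-test again called 0. The arrays did not overlap for 5 of 9 members (Lif, Il6, Il6st, Stat3 and Pim1), against 34.1% of 24362 probes. Pim1 read 2.72, 2.72 and 0.68 on the 3 ESRL arrays. All were below the ES arrays, but replicate 3 lay far below the other two, and the change of -1.43 (SE 0.46, adjusted p = 0.0714) did not pass the test. Without replicate 1 of ESRL and replicates 2 and 3 of EDRE, the arrays with the dimmest signals, Pim1 was called, at -1.77 (SE 0.48, adjusted p = 0.034), and without replicate 2 of ESRL at -1.77 (adjusted p = 0.0242). Without replicate 3 of ESRL, the lowest array, the change was -0.75 and was not called. The brightest Jak2 probe read -1.19, -0.70 and -1.09 (log2 change -0.69, SE 0.27, adjusted p = 0.145), while the other Jak2 probe, at -1.60 and -1.44 on 2 usable arrays, was called lower (log2 change -1.14, SE 0.19, adjusted p = 0.0094). The ESRL spot of that probe left out lay at -0.89, above the 2 used, and its ES spot left out at -0.63. The size of its fall thus depends on the spots left out. Il6 stayed dim, at -6.93, -5.86 and -6.24 (log2 change -0.73, SE 0.24, adjusted p = 0.0782), and was not well above background on 1 of the 3 arrays.

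**Figure D4:**
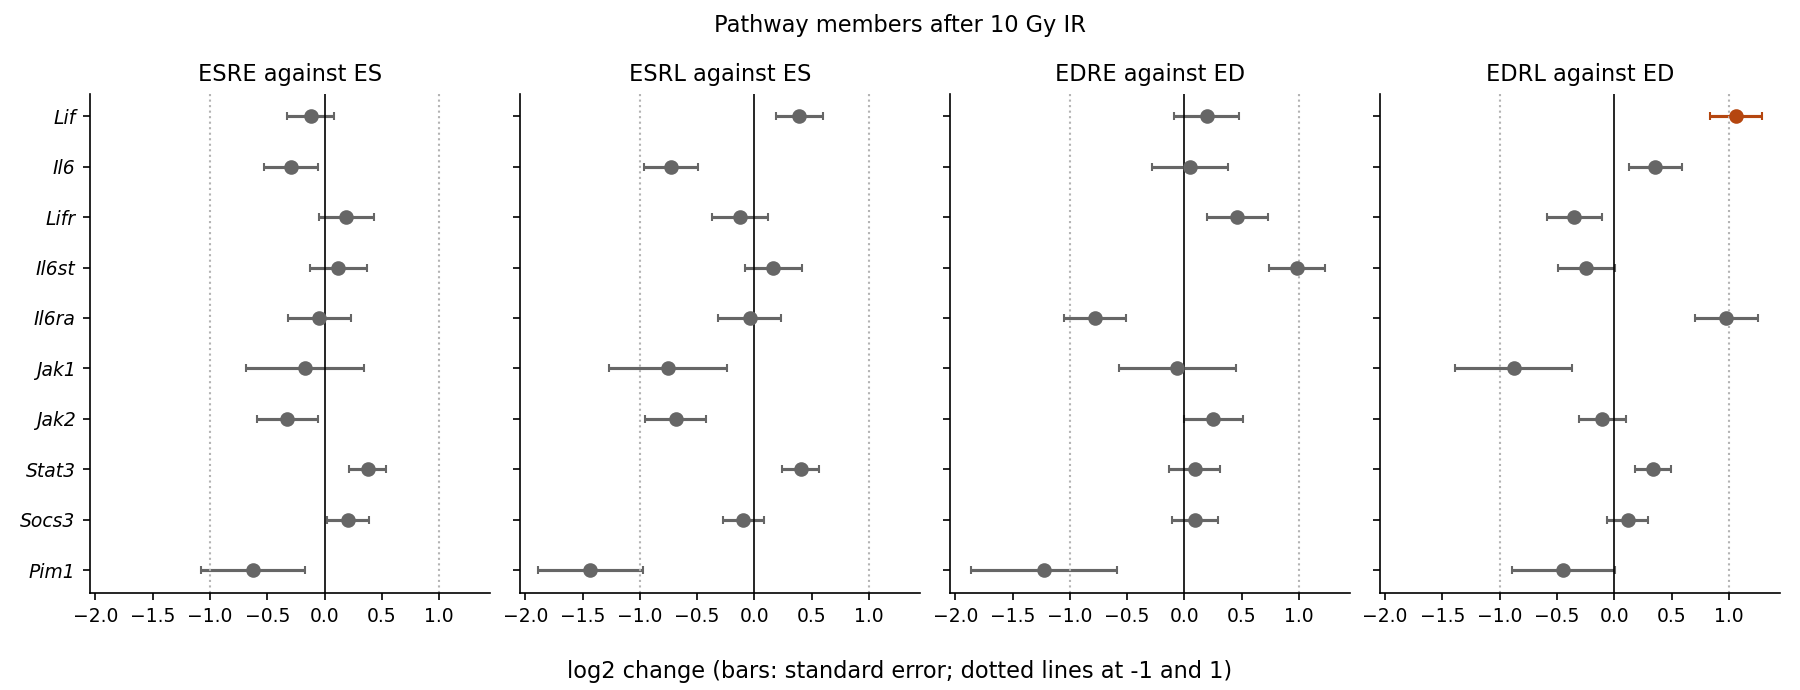
Log2 change of the brightest probe of each of the 10 genes after 10 Gy IR, with its standard error, at 15 min (ESRE, EDRE) and 4 h (ESRL, EDRL) against the unirradiated cells of the same type. Dotted lines stand at -1 and 1 and orange marks the 1 gene called. Lif at 1.06 in EDRL was the only member called, and Pim1 at -1.43 in ESRL and -1.23 in EDRE lay beyond the dotted lines without passing the test.

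In ED cells 15 min after IR, 0 of 10 members were called, against 4.85% of all 24490 probes. Il6st and Il6ra had an unadjusted p under 0.05 by limma, as did 6375 of the 24490 probes. The methods' t-test called 0 members after adjustment. Of the 3 members measured on all 6 arrays 2 did not overlap (Il6st and Il6ra), against 25.4% of 15136 probes. Il6st read 3.39, 4.62 and 4.47 in EDRE (log2 change 0.98, SE 0.25, adjusted p = 0.0331), just under the 2-fold limit. The 2 high values were those of replicates 2 and 3, the dim arrays, and with these and replicate 1 of ESRL left out the change was 0.21 (SE 0.19, adjusted p = 0.598). Il6ra read -5.05, -6.59 and -5.29 (log2 change -0.78, SE 0.27, adjusted p = 0.0853). Replicate 2, the lowest of these, was not well above background. Without replicate 1 of EDRE, so that only the dim arrays remained, both genes were called, Il6st at 1.37 (adjusted p = 3.4e-05) and Il6ra at -1.08 (adjusted p = 0.00429), in a fit that called 31.6% of 18072 probes. Pim1 rested on replicate 1 alone, at -1.06, with spots left out at 1.84 and 0.82 (log2 change -1.23, SE 0.64, adjusted p = 0.253).

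At 4 h after IR, Lif was called higher in ED cells. It was the 1 of 10 members called, against 1.61% of all 25412 probes, with 1.38% of all probes called higher. The arrays did not overlap for 4 of 8 members (Il6, Il6ra, Stat3 and Pim1), against 44.6% of 23302 probes. Its brightest probe read 0.05, 0.03 and 0.64 in ED and 1.44 and 1.15 on the 2 usable EDRL arrays, and the EDRL spot left out lay at 1.37. The groups did not overlap. Lif was 2.08-fold higher (log2 change 1.06, SE 0.23, adjusted p = 0.0316), or 1.15 relative to the median of all probes. The other Lif probe read 0.31, 0.30 and 0.39 in ED and 1.11, 1.23 and 1.15 in EDRL. Its groups were far apart for their spread, and its change of 0.83 (SE 0.14, adjusted p = 0.00775) was under the 2-fold limit. The call of the first probe stood close to both thresholds. With each of the 18 arrays left out its change lay between 0.91 and 1.26, and it kept the call in 10 of 18 fits. The adjusted p was 0.116 without replicate 1 of ED, 0.132 without replicate 2 of ED, and 0.232, 0.0501 and 0.0916 without replicates 1, 2 and 3 of EDRL. It was 0.0525 and 0.0518 without replicates 1 and 2 of ES and 0.0531 without replicate 1 of ESRE, arrays that enter only through the estimate of the spread. With the replicate number as a block the change was 0.99 (adjusted p = 0.0797). With scan time as a random block it was 1.10 and was not called, in a fit that called 0.14% of all probes. The EDRL arrays and the ED arrays were scanned at different times, so that scan time and IR cannot be told apart for this gene. Markers of other cell types also differed in level between ED and EDRL. The endothelial markers summed to between -1.93 and -1.38 in EDRL, where Tek was called higher by 2.58 (adjusted p = 5.95e-06), and the macrophage markers to between 0.73 and 0.79, against the ED ranges given above. Their part in the change of Lif was not tested.

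**Figure D5:**
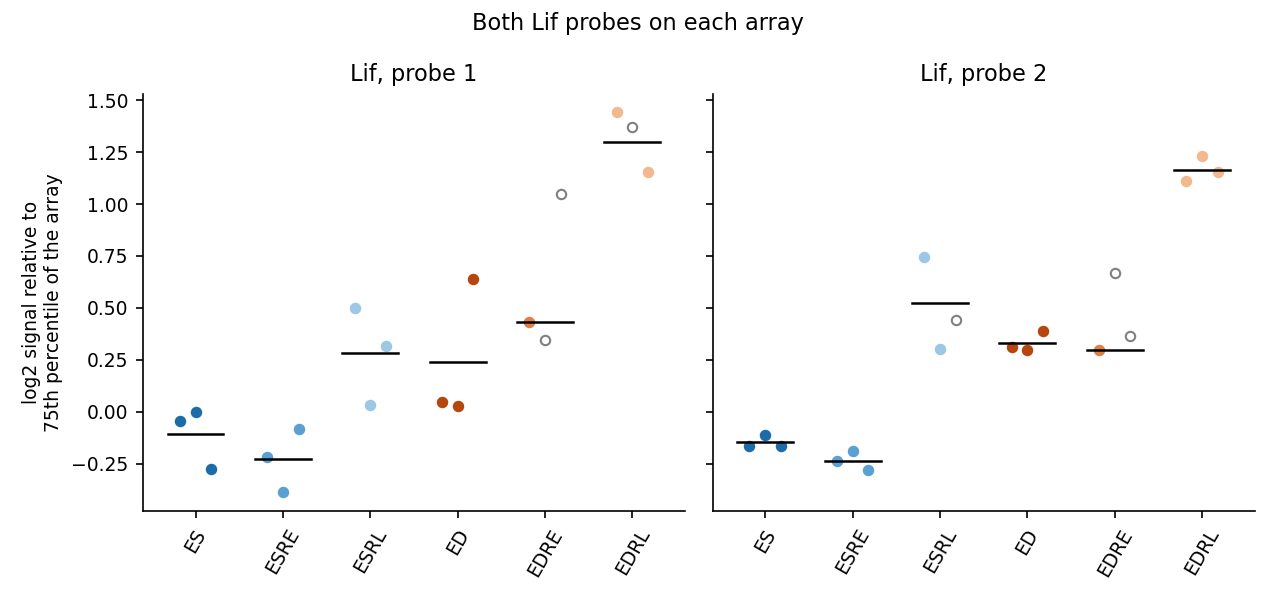
Signal of both Lif probes on each of the 18 arrays, in log2 units with the 75th percentile of its array at 0, by group. Filled points are arrays used, open points are spots with outlier marks that were left out, and black lines are group means of the points used. On the second probe EDRL lay between 1.11 and 1.23 and ED between 0.30 and 0.39, and EDRL was the highest group on both probes.

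The Lif values of ES cells at 4 h were 0.50, 0.03 and 0.31 on the first probe, with a change of 0.39 (SE 0.21, adjusted p = 0.275). On the second probe ESRL read 0.75 and 0.30 against -0.17, -0.11 and -0.16 in ES (log2 change 0.67, SE 0.16, adjusted p = 0.0257), under the 2-fold limit. The difference between the cell types in the response to IR was tested as an interaction, ES cells minus ED cells, and for Lif at 4 h it was -0.67 (SE 0.31, adjusted p = 0.34) on the first probe and -0.16 (SE 0.22, adjusted p = 0.779) on the second. A response confined to ED cells was thus not shown. In EDRL 3543 of 25412 probes had an unadjusted p under 0.05 by limma, and Il6ra was the other member among them. It read -3.72, -3.96 and -3.97, all above the ED arrays and close to the ES arrays, with a change of 0.98 (SE 0.27, adjusted p = 0.0836). This SE too rests on the spread of all groups, EDRE among them. Socs3, at 2.84, 3.15 and 3.13 in EDRL, overlapped ED (log2 change 0.12, SE 0.18, adjusted p = 0.841). Stat3 read 0.78, 0.52 and 0.41 (log2 change 0.34, SE 0.16, adjusted p = 0.362).

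No interaction of IR and cell type was called by limma among the 10 members at 15 min, against 1.98% of all 28098 probes, or at 4 h, against 1.07% of 28375. An unadjusted p under 0.05 was found for Il6st at 15 min (interaction -0.86, SE 0.35, adjusted p = 0.207) and for Il6 (-1.08, SE 0.34, adjusted p = 0.155) and Il6ra (-1.02, SE 0.39, adjusted p = 0.234) at 4 h. Among all probes it was found for 5252 of 28098 at 15 min and 4305 of 28375 at 4 h. Without the 3 dim arrays the interaction of Il6ra at 4 h was called, at -1.02 (adjusted p = 0.00163), as it was without replicate 2 of EDRE (adjusted p = 0.00921). It was also called with only the groups compared fitted (adjusted p = 0.0115 by limma). EDRE is not among those groups and enters the main fit through the spread only.

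Of the other pathway genes, Ctf1 was the 1 called after IR. In ES cells it was called higher at 15 min, at -1.78, -2.06 and -2.0 in ESRE (log2 change 1.03, SE 0.16, adjusted p = 0.0187), and at 4 h, at -1.80, -1.97 and -1.60 in ESRL (log2 change 1.18, SE 0.16, adjusted p = 0.00156). All ESRE and ESRL arrays lay above all ES arrays. The call at 15 min was lost with any 1 of the ES or ESRE arrays left out, with adjusted p between 0.053 and 0.113. In ED cells 0 of 38 other genes were called at 15 min, against 4.85% of all 24490 probes. At 4 h it was 0 of 38, against 1.61% of 25412. An unadjusted p under 0.05 by limma was found for 9 genes at 15 min, against 6375 of 24490 probes. At 4 h it was found for 1 (Il11), against 3543 of 25412. Pim3 read 5.68, 5.36 and 5.72 in ESRE, above the ES arrays, with a change of 0.90 (SE 0.17, adjusted p = 0.0385) under the 2-fold limit. At 4 h it was higher by 0.41 (SE 0.17, adjusted p = 0.154). Osmr stayed at -2.93 to -2.60 in ESRE and at 4.08 to 4.14 in EDRL, and its changes after IR, between -0.48 and 0.58 over the 4 comparisons, were not called. Its interaction at 15 min was -1.07 (SE 0.34, adjusted p = 0.126), which was called with arrays scaled to their median (-1.18, adjusted p = 0.0353). Klf4 differed by between -0.50 and 0.02 and was not called. Gbx2 and Tfcp2l1, at 0.31 and -0.57 in ESRE and -0.14 and -0.79 in ESRL as log2 changes, were not called in ES cells and were too dim to be tested in ED cells.

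The genes with patterns most like those of Lif, Stat3 and Socs3 were found among 10591 probes at most by Pearson's r over the arrays with a usable spot, which share the 6 groups and their scan times, as a description without a test. For Lif, over 15 arrays, they were Inka2 (r = 0.94), Tmem184a (r = 0.94) and Cyth1 (r = 0.90). For Stat3, over 16 arrays, they were Rfx7 (r = 0.89), Spdya (r = 0.88) and Trim32 (r = 0.88). For Socs3, over 17 arrays, Hoxb4 (r = 0.99) and Cacna2d2 (r = 0.98) were the 2 most alike.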

How the data were processed

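RNA of 18 samples, 3 in each of 6 groups taken from the sample labels, was labeled with Cy3 and hybridized to 1 Agilent array each. The intensity values deposited by the authors are the processed signals of Agilent Feature Extraction (version 9.1 in the submitters' processing notes, 10.7.3.1 in the file headers), from which the local background had been subtracted, without scaling across arrays. The outlier marks, the marks for signals well above background and those for saturation are scores of 0 or 1 that the scanner software wrote to the deposited files. The authors also deposited a table of log2 values for 30133 probes, which equalled the log2 signal (floored at 5) less a constant for each array near its median. It was used as an alternative.

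Of 39448 spots, 1417 control and 200 negative control spots were left out, and 37246 probes remained, 22216 of them named through RefSeq. Outlier spots were removed and each array's 75th percentile was subtracted from its log2 signals. Probes well above background (at least 50% of their spots) on all 3 arrays of 1 of the groups compared were tested. An array had from 49.5% to 86.1% of its probes well above background. Precision is limited by the 3 arrays per group. All 6 groups entered one model in limma 3.58.1 in R 4.3.3, separately for each pattern of missing spots, with Benjamini-Hochberg adjustment over all probes tested, and was tested on simulated data. Changes are differences of group means, and interactions are the change in ES minus that in ED cells. No columns of the files were left without a sample (0 such columns).

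The members and gene lists were chosen with earlier results of these data known. Named genes were the 10 members, Osmr, Klf4, Tfcp2l1, Gbx2 and Pim3 in every comparison, and per comparison and role the called gene with the largest rise and fall. Some values that the rule names are not reported here, and the counts over the list include them. Myc, Klf5, Cebpb and the fibroblast, macrophage, endothelial, neural and primitive endoderm lists were named beside them. Other probes of a gene were given where their call differed, and for Lif and Stat3 also in ED against ES. After IR not all other probes are given. Alternatives changed the background correction (normexp, offset 50), the scaling, the outlier and detection filters, the block, the arrays fitted and weighted, the test (the two-sided t-test of the methods), the limit on the change and the probe used, and each array was left out in turn. Same-numbered arrays of the groups compared deviated from their group means with correlations from -0.434 to 0.304, so that the numbers were not taken to pair the arrays. Motifs, TTGNGCAA among them chosen after values were seen, were searched in promoter sequences of RefSeq (GRCm38.p6, 250 bases before to 50 after the start), which held all 10 members.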

Additional observations from a re-analysis of the deposited data

Results flagged for a closer look

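Ctf1 was the 1 gene among the members and the other pathway genes whose response to IR differed between the cell types by a called interaction. The log2 change in ES minus that in ED was 1.40 at 15 min (SE 0.29, adjusted p = 0.0366) and 1.53 at 4 h (SE 0.24, adjusted p = 0.0115). Ctf1 read -3.07, -2.86 and -3.0 in ES, between -2.06 and -1.78 in ESRE and between -1.97 and -1.60 in ESRL. In the differentiated cells it read -0.16 and 0.01 in ED, -0.44 on the 1 usable EDRE array and -0.50, -0.28 and -0.48 in EDRL. Thus it was higher after IR in the ES cells and no higher in the ED cells, in which it was already above its level in the irradiated ES cells. The interaction at 15 min rests on that 1 EDRE array and lost the call in 8 of 11 fits that left out an array of the groups compared, with adjusted p up to 0.0923. It also lost the call under 7 of 14 other settings, among them median scaling (1.16, adjusted p = 0.113) and array weights (1.37, adjusted p = 0.152). At 4 h it lost the call in 1 of 12 fits that left out an array of the groups compared, without replicate 3 of ED (1.44, adjusted p = 0.056). The interaction at 4 h kept the call under 10 of 14 other settings. It lost the call with normexp background correction (adjusted p = 0.0606 by limma) and with outlier spots kept (adjusted p = 0.0793). The call was also lost with the authors' table (adjusted p = 0.119) and with scan time as a random block, which called 0 of all probes here. Ctf1 was selected on these samples by the study, and the cause was not tested. Groups of 3 arrays were not searched for single outlying values. Arrays of EDRE correlated with each other at r of 0.863 to 0.956, and those of the other groups at 0.954 or more.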

How the results depend on the processing

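Of 2265 member values under the alternatives, 2208 kept their side of the threshold, 26 lost a call and 30 gained one. In 74 the sign changed without a call on either side, and Jak1 in EDRE reversed with a call, to 1.51 with normexp background correction. Part of the agreement was fixed in advance, since leaving out an array outside a comparison cannot move its change. Most values also had no call to lose, since only Lif in EDRL was called among members after IR. Il6 in ED against ES was called throughout. With scan time as a random block, members called fell from 5 to 2 and other genes from 26 to 17 in ED against ES, members in EDRL to 0, and Ctf1 lost each of its calls after IR (0 other genes in ESRE, ESRL and both interactions). Among all probes tested, this setting called 21.2% in ED against ES, where the main fit called 41.7%. After IR it called 0.14% in EDRL, 1 probe in EDRE, and 0 in ESRE, ESRL and both interactions. With no limit on the change, 8 members passed in ED, 1 in EDRE (Il6st), and 2 other genes in ESRE. With array weights, members called were 1 in ESRL (Pim1), 1 in EDRE (Il6st), 1 in the interaction at 15 min and 2 in that at 4 h, and other genes were 3 in ESRL, 5 in EDRE, 1 in EDRL, 4 and 3 in the interactions. Of all probes, that setting called 13.1% in ESRL, 23.4% in EDRE, and 26.7% and 8.85% in the interactions. It gave replicate 1 of EDRE the lowest weight of all arrays (0.0765) and the dim replicate 3 of EDRE a weight of 2.36. In ESRL, replicates 1 and 2 had weights of 0.192 and 0.275, and replicate 3, the array lowest in Pim1, had 1.13. Without the 3 dim arrays, 1 member was called in ESRL (Pim1), 1 in the interaction at 4 h (Il6ra), and 2 other genes in that at 15 min. Lif in EDRL lost its call (0 members) with normexp (1.03), median scaling (1.19), no detection filter (1.06), the methods' t-test (1.06) and the mean over its probes (0.92, adjusted p = 0.00588, under the 2-fold limit), and under the replicate block, although the replicate numbers do not pair the arrays. The replicate block also left 0 other genes in the interaction at 15 min (Ctf1) and added Jak2 in ED against ES, and changed no other call of a named gene. With normexp, 1 member (Jak1) and 1 other gene were called in EDRE and 0 other genes in either interaction. Median scaling called 1 member in EDRE (Il6st) and 1 other gene in EDRL (Il11), and in the interaction at 15 min Osmr in place of Ctf1. With outlier spots kept, other genes were 0 in ESRE, 3 in EDRE, 2 and 0 in the interactions. With no detection filter they were 1 in EDRE and 0 in the interaction at 15 min. With only the groups compared fitted, other genes were 1 in EDRL, 0 in the interaction at 15 min and 2 in that at 4 h, where 1 member was called (Il6ra). The methods' t-test left 0 other genes in ESRL and 1 in EDRL, and was not run for interactions. The authors' table gave 1 member in EDRE, and other genes were 0 in ESRE, 2 in EDRE, 2 and 0 in the interactions. With each array left out, members called ranged from 5 to 6 in ED, from 0 to 1 in ESRL, EDRL and the interaction at 4 h, and from 0 to 2 in EDRE and that at 15 min, and were 0 in ESRE. Other genes ranged from 24 to 27 in ED, 0 to 1 in ESRE and EDRL, 1 to 4 in ESRL, 0 to 5 in EDRE and the interaction at 15 min, and 0 to 2 in that at 4 h. The causes were not tested.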
